A study of Homo sapiens with 12 samples.

Results

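The comparison set K562 cells given palmitate and palmitoleate together against K562 cells left untreated, and its members were the 2 labelled wild-type libraries of experiment 2 that carry these labels, out of 12 libraries in 3 experiments. K562 is a human leukemia cell line that carries the BCR-ABL1 fusion and expresses fetal and embryonic globin genes. The cells of the first library were wild type and received both fatty acids, at 0.2 mM each per the legend inside the deposited table, and those of the second were wild type and received neither. The palmitate was coupled to bovine serum albumin, and whether the untreated cells received albumin alone is not stated. That legend gives 16 h of exposure, and the sample labels give 20 h. Each library was made from RNA of 3 biological replicates that had been pooled, so each condition had 1 library and no spread between replicates of its own. The other labelled libraries of the series were wild-type cells given palmitate or palmitoleate alone, and cells with GPAT4 knocked out or RNF213 knocked down. From these, wild-type palmitate of experiment 2 is set beside the comparison, and palmitate of experiments 1 and 3 and palmitoleate alone of experiment 1 serve as comparisons that share no library with it.

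Palmitate carries no double bond, and palmitoleate has the same chain length and a single one. An excess of saturated fatty acid stiffens the membrane of the endoplasmic reticulum (ER) and activates the unfolded protein response, whose ATF6 and IRE1 arms raise ER chaperones and whose PERK arm phosphorylates the translation factor eIF2 alpha. Phosphorylated eIF2 alpha favours translation of the transcription factor ATF4, a route shared with kinases that sense amino acid shortage, heme or viral RNA, and known as the integrated stress response. ATF4 raises genes of amino acid synthesis, amino acid import and tRNA charging. Monounsaturated fatty acids are known to lower the toxicity of saturated ones in many cell types, in part because they are built into triglycerides.

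Expression is given as FPKM, fragments per kilobase of transcript scaled to the mapped fragments of a library, and differences as log2 ratios of FPKM + 1, a scale that understates differences of genes with low levels. Across 10686 genes that averaged 1 FPKM or more over the 2 libraries, the library with both fatty acids lay close to the untreated one. The median log2 ratio was -0.03 with an SD across genes of 0.32, and 94.8% of genes lay within 1.5-fold of the untreated level. With the median under 0, more genes had a ratio under 0 than above it, which is the background for counts above 0 in gene lists. At least 2-fold higher with both fatty acids were 101 genes (0.945%), and at least 2-fold lower were 22 (0.206%), a split in which 82.1% were higher. When small RNA genes were kept, the counts were 129 higher and 65 lower, and 66.5% were higher. Palmitate alone in the same experiment put 1174 genes (11.0%) at least 2-fold above the same untreated library and 1232 (11.5%) at least 2-fold below it. At least 4-fold higher with both fatty acids were 12 genes, and at least 4-fold lower were 2. With both acids 1.15% of tested genes were past 2-fold either way, so a count of 0 in a short gene list lies near that share. In bulk RNA, fewer cells of a type and less RNA per cell cannot be told apart.

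**Figure D1:**
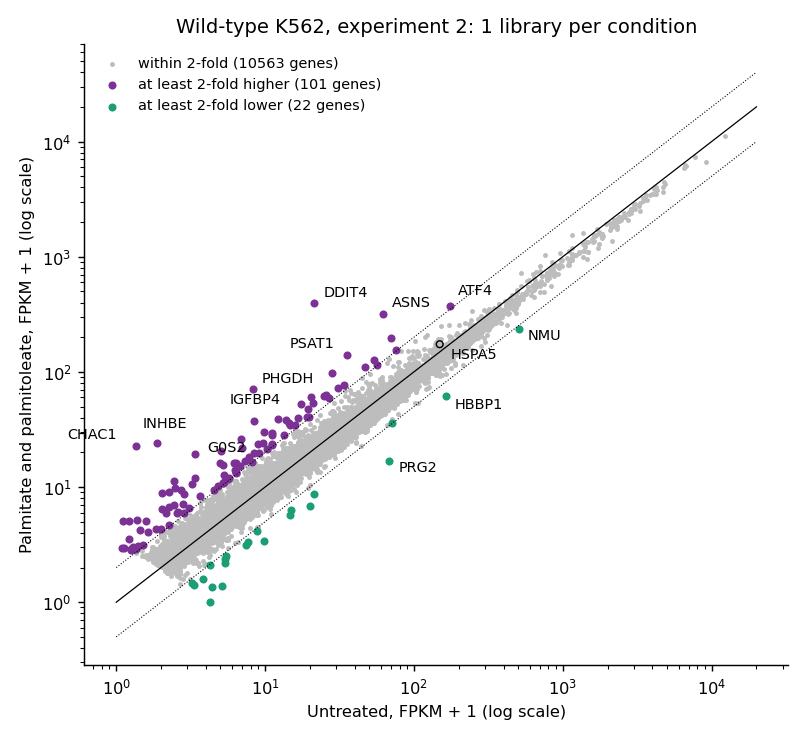
FPKM + 1 of each of the 10686 tested genes in the library with both fatty acids (vertical, log scale) against the untreated library (horizontal, log scale), both of experiment 2; the solid line marks equal levels and the dotted lines 2-fold. Most points hug the line, the 101 genes at least 2-fold higher are purple and the 22 at least 2-fold lower are green, and HSPA5 (open circle) lies near the line.

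With 1 library per side, an error was borrowed from the 3 wild-type palmitate over untreated ratios, 1 per experiment, on the assumption that the lone ratio varies as they do. The palmitate ratio of experiment 2 shares the untreated library with the comparison. The assumption is doubtful, since the median borrowed error of 0.42 exceeds the SD of 0.32 of the comparison's own ratios across genes. Intervals and p-values here place a ratio on the borrowed spread of palmitate responses, and are no measured error of the ratio itself. On that spread, limma with Benjamini-Hochberg adjustment over all tested genes called 5 genes (0.0468%), each of them higher with both fatty acids. They were DDIT4, CHAC1, INHBE, PHGDH and ASNS. All 5 are known targets of ATF4. At an unadjusted p under 0.05, 128 genes (1.2%) were higher and 36 (0.337%) were lower. The 5 calls are not firm: none of the 5 passed when no filter on low values was used, when small RNA genes were kept, when a trend with GC content was removed, or when the experiments were not used as blocks, and all 5 passed in the other alternatives except that ASNS did not without an intensity trend.

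The integrated stress response genes stood out by their levels. DDIT4, an inhibitor of mTORC1 signalling, stood at 399 FPKM with both fatty acids and at 463 FPKM with palmitate alone, against 20.4 FPKM in untreated cells. CHAC1, an enzyme that degrades glutathione, stood at 21.6 FPKM with both fatty acids, at 8.82 FPKM with palmitate and at 0.362 FPKM in untreated cells. INHBE, a subunit of the activin family, stood at 23.2 FPKM with both fatty acids, at 72.6 FPKM with palmitate and at 0.884 FPKM in untreated cells. DDIT4 thus came close to its level under palmitate, CHAC1 was higher with both acids than with palmitate, and INHBE lay between palmitate and untreated. The log2 ratio of both fatty acids over untreated was 4.22 for DDIT4 (95% limma interval 2.96 to 5.49, adjusted p = 0.00789). For CHAC1 it was 4.06 (2.83 to 5.28, limma adjusted p = 0.00789). For INHBE it was 3.68 (2.58 to 4.78, limma adjusted p = 0.00789). In hg19 coordinates of the deposited tables, DDIT4 lies at chr10:74033677-74035797, CHAC1 at chr15:41245636-41248717 and INHBE at chr12:57849096-57851791. The untreated library of experiment 1 held more CHAC1 (3.95 FPKM) and INHBE (2.82 FPKM) than the untreated library used here, and that of experiment 3 held levels close to those of the library used here, with 0.410 FPKM of CHAC1 and 0.849 FPKM of INHBE.

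Of 23 genes on a list of integrated stress response regulators and effectors, 18 were tested. At least 2-fold higher were 12 and none was lower. All 18 had a ratio above 0, with a median log2 ratio of 1.43 against -0.03 over all tested genes, and 15 had a 95% interval above 0. The factors ATF4 and DDIT3 had log2 ratios under the median of the list, and ATF3 had one above it. ATF4 stood at 372 FPKM with both fatty acids, at 641 FPKM with palmitate and at 175 FPKM untreated, a log2 ratio of both acids over untreated of 1.09. DDIT3, which encodes the factor CHOP, stood at 128 FPKM with both fatty acids, at 799.9 FPKM with palmitate and at 66.8 FPKM untreated, a log2 ratio of 0.93. ATF3, a repressor that ATF4 raises, stood at 19.6 FPKM with both fatty acids, at 326 FPKM with palmitate and at 4.07 FPKM untreated, a log2 ratio of 2.02 (0.73 to 3.31). With both acids these 3 factors lay well under their palmitate levels, unlike DDIT4. TRIB3, a pseudokinase that feeds back on ATF4, stood at 97.5 FPKM with both fatty acids, at 342 FPKM with palmitate and at 27.0 FPKM untreated. GDF15, a secreted stress hormone, stood at 59.2 FPKM with both fatty acids, at 543 FPKM with palmitate and at 19.5 FPKM untreated. The stress sensor SESN2 stood at 38.4 FPKM with both fatty acids, at 176 FPKM with palmitate and at 11.2 FPKM untreated. All of these were under their palmitate levels. STC2, a secreted glycoprotein, was higher with both acids than with palmitate, with 11.1 FPKM under both fatty acids, 4.93 FPKM under palmitate and 2.40 FPKM untreated. The 18 log2 ratios ran from 0.22 to 4.22.

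ATF4 acts at a composite element whose core reads TGATGNAA, and the ATF6 arm acts at the ER stress element, a CCAAT box and a CCACG box at a fixed distance. Both were searched on both strands in the 250 bases before the start of each gene, from RefSeq promoters of GRCh38.p14, matched by symbol. The promoters of CHAC1, ASNS and ATF3 are shown because they hold the ATF4 core and their genes were higher with both acids, and that of HSPA5 because it holds the ER stress element and its gene was not. Capitals mark the match, and each sequence runs 5′ to 3′ on the strand of the gene.
CHAC1: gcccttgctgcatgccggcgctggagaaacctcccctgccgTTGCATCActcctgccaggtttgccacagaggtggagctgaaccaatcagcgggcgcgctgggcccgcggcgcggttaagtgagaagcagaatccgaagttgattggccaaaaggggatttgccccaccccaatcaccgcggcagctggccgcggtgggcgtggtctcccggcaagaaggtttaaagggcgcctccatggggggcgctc
ASNS: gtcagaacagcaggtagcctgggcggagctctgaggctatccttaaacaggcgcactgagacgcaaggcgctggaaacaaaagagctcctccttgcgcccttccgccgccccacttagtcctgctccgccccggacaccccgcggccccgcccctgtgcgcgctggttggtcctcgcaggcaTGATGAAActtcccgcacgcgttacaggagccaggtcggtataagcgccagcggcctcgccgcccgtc
ATF3: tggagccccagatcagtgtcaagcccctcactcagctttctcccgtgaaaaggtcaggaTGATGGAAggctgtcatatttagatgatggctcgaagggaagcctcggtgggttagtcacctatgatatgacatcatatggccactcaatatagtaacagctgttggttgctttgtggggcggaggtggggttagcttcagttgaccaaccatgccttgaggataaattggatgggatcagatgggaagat
HSPA5: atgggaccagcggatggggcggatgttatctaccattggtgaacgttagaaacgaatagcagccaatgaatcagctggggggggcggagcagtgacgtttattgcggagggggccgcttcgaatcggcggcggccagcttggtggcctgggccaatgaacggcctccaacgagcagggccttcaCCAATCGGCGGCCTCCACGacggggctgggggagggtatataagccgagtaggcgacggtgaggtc
These windows are chr15:40953221-40953470 (plus strand) for CHAC1, chr7:97872409-97872658 (minus strand) for ASNS, chr1:212565157-212565406 (plus strand) for ATF3 and chr9:125241344-125241593 (minus strand) for HSPA5. In CHAC1 the match lies on the opposite strand, 209 to 202 bases before the start, and in ASNS it lies 68 to 61 bases before it. The ATF4 core was in 8 of 77 promoters of the higher genes (10.4%), in 0 of 16 of the lower genes, in 109 of 8441 over all tested genes (1.29%) and in 3.14% of all 35116 promoters of the table. The 8 genes were CHAC1, ASNS, IL20RB, TMEM154, ATF3, HERPUD1, BCAT1 and AARS. Most genes of the stress response and amino acid synthesis lists lacked the core in this window. It was in 2 of 15 promoters of the stress response list and in 3 of 11 of the amino acid synthesis list. DDIT4 and PHGDH had no match, while GOT1 and MTHFD1L, with log2 ratios of 0.57 and 0.44, had one. The ER stress element was in 0 of the same 77 promoters, in 14 of 8441 over all tested genes (0.166%), and in 6 of 20 promoters of ER chaperones (30.0%). A match is a run of letters and not a measured binding site.

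Enzymes that make amino acids were higher in part. Of 18 genes for synthesis of serine, folate carbon, asparagine and proline, all were tested, 7 were at least 2-fold higher and none was lower, with a median log2 ratio of 0.55. PHGDH, the first enzyme of serine synthesis, stood at 70.6 FPKM with both fatty acids, at 90.6 FPKM with palmitate and at 7.29 FPKM untreated. ASNS, asparagine synthetase, stood at 318 FPKM with both fatty acids, at 447 FPKM with palmitate and at 60.7 FPKM untreated. Both rose, PHGDH by a log2 ratio of 3.11 (2.06 to 4.16, limma adjusted p = 0.0235) and ASNS by 2.37 (1.54 to 3.21, limma adjusted p = 0.0324). In hg19, PHGDH lies at chr1:120254419-120286849 and ASNS at chr7:97481429-97501854. PSAT1, the enzyme after PHGDH, stood at 139 FPKM with both fatty acids, at 70.3 FPKM with palmitate and at 34.7 FPKM untreated, a log2 ratio of 1.97 with a limma adjusted p of 0.162. GPT2, a mitochondrial alanine transaminase, stood at 8.03 FPKM with both fatty acids, at 3.20 FPKM with palmitate and at 1.26 FPKM untreated. PSAT1 and GPT2 were thus higher in the library with both acids than in the palmitate library, while PHGDH and ASNS were lower in it than in the palmitate library. CTH and ALDH1L2 followed the pattern of PHGDH and ASNS. CTH, which makes cysteine, stood at 25.3 FPKM with both fatty acids, at 45.8 FPKM with palmitate and at 5.87 FPKM untreated. ALDH1L2, a mitochondrial folate enzyme, stood at 7.92 FPKM with both fatty acids, at 19.7 FPKM with palmitate and at 1.01 FPKM untreated.

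Importers of amino acids were also higher in part. Of 14 tested transporters, 5 were at least 2-fold higher and none was lower, with a median log2 ratio of 0.48. SLC7A11, the cystine importer, stood at 8.85 FPKM with both fatty acids, at 26.1 FPKM with palmitate and at 1.48 FPKM untreated. SLC1A4, a neutral amino acid transporter, stood at 20.8 FPKM with both fatty acids, at 14.9 FPKM with palmitate and at 5.95 FPKM untreated. SLC7A5, which imports leucine, stood at 126 FPKM with both fatty acids, at 104 FPKM with palmitate and at 53.1 FPKM untreated. SLC1A4 and SLC7A5 with both acids were above their palmitate levels. SLC6A9 and SLC38A2 had log2 ratios of 1.70 and 1.01, and SLC7A1 had 0.87. Among 20 cytosolic tRNA synthetases, 3 were at least 2-fold higher, with a median of 0.19, which was 0.038 with the GC trend removed. These were WARS at 1.48, CARS at 1.32 and AARS at 1.03, for tryptophan, cysteine and alanine. MARS, GARS and YARS lay at 0.89, 0.76 and 0.72. Of 11 tested genes that act on or with eIF2, 0 were past 2-fold, against 1.15% of all tested genes. The 4 kinases of eIF2 alpha and the phosphatase subunit PPP1R15B had a median of 0.22, from -0.09 for EIF2AK1 to 0.46 for EIF2AK2. The 6 subunits of eIF2 and its exchange factor eIF2B had a median of -0.27, and that division was made after values were seen.

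**Figure D2:**
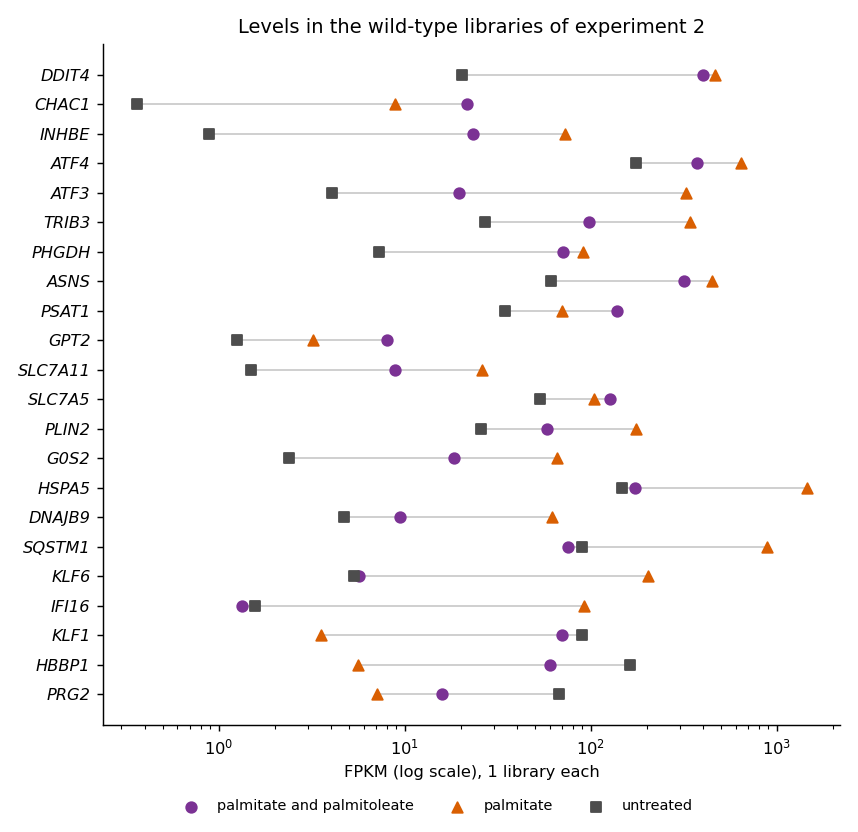
FPKM (horizontal, log scale) of 22 genes in the 3 wild-type libraries of experiment 2, with both fatty acids (circles), palmitate (triangles) and untreated (squares), 1 library each. DDIT4, PHGDH and ASNS with both acids sit near palmitate, CHAC1, PSAT1 and GPT2 sit beyond it, and HSPA5, SQSTM1, KLF6 and IFI16 sit beside the untreated level.

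ER chaperones stayed near the untreated level. Of 22 ER chaperones and folding enzymes, all were tested and 0 were past 2-fold in either direction, against 1.15% of all tested genes. The list had a median log2 ratio of 0.03 for both fatty acids and 1.41 for palmitate over the same untreated library. HSPA5, the chaperone BiP, stood at 173 FPKM with both fatty acids, at 1451 FPKM with palmitate and at 148 FPKM untreated. Its log2 ratio of both acids over untreated was 0.22, with an interval from -0.60 to 1.05. On the borrowed spread, that interval excludes a 4-fold difference. DNAJB9, a BiP cofactor and target of the IRE1 arm, was the highest of the 22 at 0.86, with 9.42 FPKM under both fatty acids, 61.5 FPKM under palmitate and 4.73 FPKM untreated. MANF lay at 0.38, HYOU1 at 0.35 and CALR at -0.37. Of 31 tested genes of ER-associated degradation and secretion, 1 was past 2-fold and the median was 0.05. That gene was HERPUD1, a subunit of the degradation complex that ATF4 also raises, at 28.5 FPKM with both fatty acids, 147 FPKM with palmitate and 10.1 FPKM untreated. XBP1, the factor spliced by IRE1, lay at 0.90 (0.01 to 1.80), and gene-level values do not show its splicing.

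Other programs of the palmitate response also lay near the untreated level. Of 18 tested NRF2 targets, which guard against oxidants, 0 were past 2-fold, against 1.15% of all tested genes. Their median was -0.12 for both fatty acids and 1.75 for palmitate. Counts of 0 in short lists, here and below, lie near that share of all genes. SQSTM1, an autophagy receptor, stood at 75.1 FPKM with both fatty acids, at 880.3 FPKM with palmitate and at 90.1 FPKM untreated. OSGIN1, an oxidative stress gene, stood at 3.51 FPKM with both fatty acids, at 95.02 FPKM with palmitate and at 3.30 FPKM untreated. Among 9 tested NF-kappaB and inflammatory genes 0 were past 2-fold, and the median was 0.20 for both fatty acids. The highest of them were NFKB2 at 0.91 and TNFAIP3 at 0.90 (0.03 to 1.76), and 7 of the 9 lay above 0. In FPKM without the added 1, NFKB2 was 2.07-fold and TNFAIP3 2.11-fold above untreated. The chemokine gene IL8, now named CXCL8, stayed under the filter, with 0.581 FPKM under both fatty acids, 695 FPKM under palmitate and 0.0843 FPKM untreated. Of 12 tested immediate early genes 0 were past 2-fold, with a median of 0.13. JUN stood at 9.03 FPKM with both fatty acids, at 104 FPKM with palmitate and at 9.10 FPKM untreated. CDKN1A, a cell cycle inhibitor, stood at 4.26 FPKM with both fatty acids, at 146 FPKM with palmitate and at 1.99 FPKM untreated, and its interval of -0.63 to 2.26 is wide. Apoptosis regulators were spread more widely, with 2 of 12 tested genes at least 2-fold higher, 7 above 0 and a median of 0.33, which was 0.0053 with no filter on low values. The death receptor TNFRSF10B and the BH3-only factor PMAIP1 were the 2, at log2 ratios of 1.08 and 1.06, and the lowest was BCL2L11 at -0.23.

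**Figure D3:**
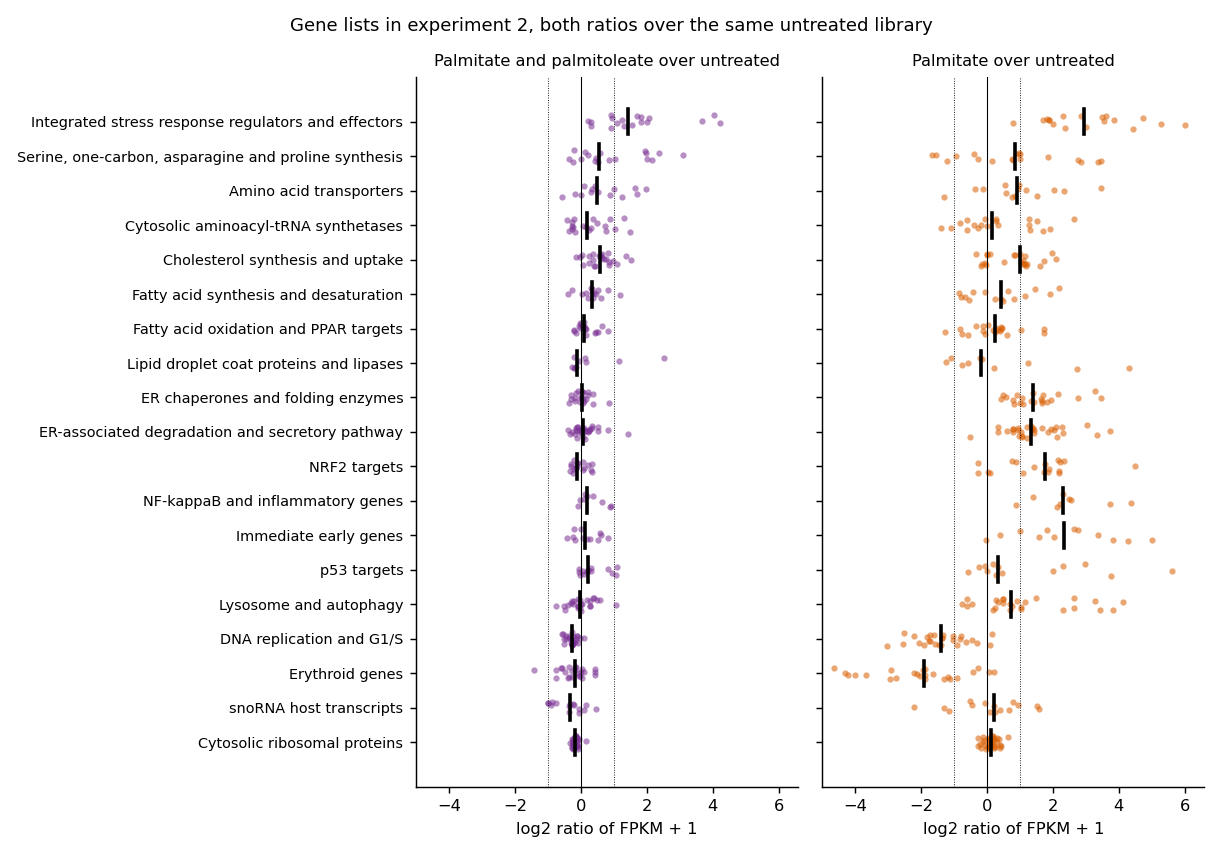
Log2 ratios of FPKM + 1 (horizontal) for the tested members of 19 gene lists, over the same untreated library of experiment 2, with both fatty acids on the left and palmitate on the right. Each point is a gene, black bars are medians and dotted lines mark 2-fold; in the left panel the stress response list has a median of 1.43, and the ER chaperone list has 0.03.

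Genes of cholesterol synthesis and uptake leaned higher. Of 24 tested, 3 were at least 2-fold higher, 0 were lower and 22 had a ratio above 0, with a median log2 ratio of 0.59. MSMO1, a sterol oxidase, stood at 27.6 FPKM with both fatty acids, at 35.9 FPKM with palmitate and at 10.2 FPKM untreated. MVK, mevalonate kinase, stood at 12.5 FPKM with both fatty acids, at 12.4 FPKM with palmitate and at 5.35 FPKM untreated. MSMO1 and MVK were also above untreated with palmitate. INSIG1, which retains the sterol sensor in the ER, lay at 0.98. None of these passed limma after adjustment, and 4 of the 24 intervals lay above 0. Palmitoleate alone in experiment 1 gave MVK a log2 ratio of -1.32 and INSIG1 -1.23, opposite in sign to those of both acids, and the cholesterol list a median of -0.36 (-0.46 once its GC trend was removed). Fatty acid synthesis and desaturation genes also leaned higher, with 13 of 15 above 0, a median of 0.34 and 1 past 2-fold, the elongase ELOVL7 at 1.20. SCD, the desaturase that makes palmitoleate from palmitate, stood at 150 FPKM with both fatty acids, at 131 FPKM with palmitate and at 97.6 FPKM untreated. FADS2, another desaturase, lay at 0.83, and FASN and SREBF1, near the low end of the list, lay at 0.04 and -0.38.

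In the list of lipid droplet proteins 2 of 10 tested genes were at least 2-fold higher, and the median was -0.11. PLIN2, the droplet coat protein whose level follows stored lipid, stood at 58.1 FPKM with both fatty acids, at 175 FPKM with palmitate and at 25.7 FPKM untreated, a log2 ratio of 1.15 (0.23 to 2.06). G0S2, an inhibitor of the triglyceride lipase ATGL, stood at 18.4 FPKM with both fatty acids, at 66.0 FPKM with palmitate and at 2.37 FPKM untreated, a log2 ratio of 2.53 with a limma adjusted p of 0.162. Of 21 tested genes of fatty acid oxidation and PPAR targets 0 were past 2-fold, against 1.15% of all tested genes. The highest was CPT1A at 0.82. CPT1A, the carnitine transferase that gates mitochondrial import, stood at 22.0 FPKM with both fatty acids, at 6.76 FPKM with palmitate and at 12.1 FPKM untreated. The PPAR targets PDK4 and ANGPTL4 were barely detected. PDK4 stood at 0.138 FPKM with both fatty acids and was listed at 0 untreated. ANGPTL4 stood at 0.380 FPKM with both fatty acids and 0.0698 FPKM untreated. AGPAT9, an acyltransferase of glycerolipid synthesis, lay at 1.23, and AGPAT6, now named GPAT4, stood at 18.0 FPKM with both fatty acids and 21.0 FPKM untreated.

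Lower genes were fewer and smaller in ratio, and none passed limma after adjustment. PRG2, which encodes an eosinophil granule protein, stood at 15.8 FPKM with both fatty acids, at 7.06 FPKM with palmitate and at 67.4 FPKM untreated, a log2 ratio of -2.03 (-3.29 to -0.76). KCNN4, a calcium-gated potassium channel, stood at 5.82 FPKM with both fatty acids, at 2.02 FPKM with palmitate and at 19.0 FPKM untreated. CD24, a surface glycoprotein, stood at 2.42 FPKM with both fatty acids, at 13.3 FPKM with palmitate and at 8.85 FPKM untreated. PRG2 and KCNN4 were thus lower still with palmitate, while CD24 was higher with palmitate than untreated. In hg19 coordinates of the deposited tables CD24 lies at chrY:21094585-21239302, and the origin of its reads was not tested. NMU, neuromedin U, was the most abundant of the lower genes at 233 FPKM with both fatty acids, 52.2 FPKM with palmitate and 505 FPKM untreated. DEFB133, the other gene past 4-fold, was listed at 0 with both fatty acids and at 3.28 FPKM untreated, so no fold is given. The long noncoding hosts of small nucleolar RNAs leaned lower, with a median of -0.33 over 15 genes and 3 above 0. SNHG4 stood at 34.6 FPKM with both fatty acids, at 14.5 FPKM with palmitate and at 70.5 FPKM untreated. SNHG12, SNHG3 and SNHG7 had log2 ratios of -0.99, -0.91 and -0.88.

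Erythroid genes, which define the line, lay slightly under the untreated level. Of 24 tested, 0 were at least 2-fold higher and 1 lower, 6 lay above 0, and the median was -0.17 with both fatty acids against -1.91 with palmitate. KLF1, an erythroid transcription factor, stood at 70.1 FPKM with both fatty acids, at 3.54 FPKM with palmitate and at 89.8 FPKM untreated. HBBP1, a globin pseudogene, was the gene past 2-fold, at 60.6 FPKM with both fatty acids, 5.60 FPKM with palmitate and 163 FPKM untreated. HBD and HBA2 had log2 ratios of -0.76 and -0.77, and reads of the near-identical HBA1 and HBA2 may have been split between the copies. Genes of DNA replication had a median of -0.28 with 1 of 27 above 0, cytosolic ribosomal proteins -0.18 with 1 of 35 above 0, and subunits of oxidative phosphorylation -0.12 with 3 of 29 above 0. None of the genes on these 3 lists was past 2-fold, against 1.15% of all tested genes. RRM2, a subunit of ribonucleotide reductase, stood at 112 FPKM with both fatty acids, at 45.4 FPKM with palmitate and at 153 FPKM untreated. Summed FPKM over all genes was 653590 with both fatty acids and 730570 untreated, and whether this bears on shifts of this size was not tested.

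The palmitate and untreated libraries of experiments 1 and 3 are not part of the comparison. Palmitate put 636 genes (5.95%) at least 2-fold higher and 1223 (11.4%) at least 2-fold lower in experiment 1, 17.4% in all. In experiment 3 it put 573 (5.36%) higher and 200 (1.87%) lower, 7.23% in all. Of the 101 genes higher with both acids, 54 were at least 2-fold higher with palmitate in experiment 1 and 66 in experiment 3. Ratios of palmitate followed transcript GC content in experiment 1 (Spearman's rho -0.65 across genes) more than in experiment 3 (0.16). At least 2-fold higher with palmitate in both experiments were 299 genes. With both fatty acids their median log2 ratio was 0.35, and 245 of them (81.9%) had a ratio above 0. Over all tested genes the median was -0.03, with more genes under 0 than above it. Within 1.5-fold of untreated lay 65.2% of the 299, against 94.8% of all tested genes. With the GC trend removed from the ratios of both acids, the median of the 299 was 0.31. Of the 299, 49 (16.4%) were at least 2-fold higher with both acids and 0 were lower, against 0.945% of all tested genes, and these 49 make 48.5% of the 101 higher genes. At least 2-fold lower with palmitate in both experiments were 83 genes, with a median of -0.25 under both acids. Of these 83, 3 (3.61%) were at least 2-fold lower with both acids, against 0.206% of all tested genes. They were HBBP1, KCNN4 and SELPLG, and they make 13.6% of the 22 lower genes. Within the 299 the lists differed: 15 members of the integrated stress response list had a median of 1.30 with 9 past 2-fold, and 6 of the amino acid synthesis list had 2.06 with 5 past it. The 12 ER chaperones among the 299 had a median of 0.07 and 0 past 2-fold, and 8 NRF2 targets had 0.08 and 0 past it.

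**Figure D4:**
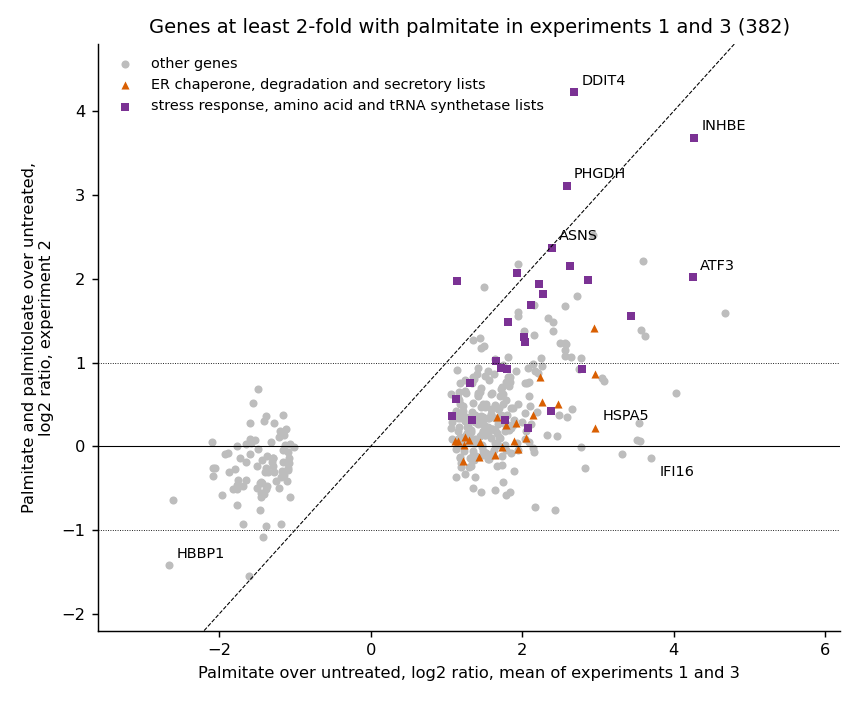
Log2 ratio of both fatty acids over untreated in experiment 2 (vertical) against the mean log2 ratio of palmitate over untreated in experiments 1 and 3 (horizontal) for the 382 genes at least 2-fold in both of those experiments; the dashed line marks equal ratios and the dotted lines 2-fold. Stress response and amino acid genes (squares) reach or pass the dashed line at ASNS, PHGDH and DDIT4, while ER genes (triangles) lie low, most within 2-fold of untreated.

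At least 4-fold with palmitate in both experiments 1 and 3 were 56 genes, 52 of them higher. With both acids 26 of the 56 were at least 2-fold in the same direction, against 1.15% of all tested genes past 2-fold either way. Another 18 of the 56 lay within 1.5-fold of untreated, against 94.8% of all tested genes. Named by rank from the ends of the range, the 8 largest ratios were those of INHBE, G0S2, ASNS, IL20RB, ALDH1L2, ATF3, SLC7A11 and CTH. IL20RB, a subunit of receptors for cytokines of the IL-20 family, stood at 10.4 FPKM with both fatty acids, at 52.2 FPKM with palmitate and at 1.45 FPKM untreated, a log2 ratio of 2.21. The 8 nearest 0 were HSPA5, CCRL2, OSGIN1, KLF6, JUN, CXCL2, IFI16 and SQSTM1. IFI16, a DNA sensor, stood at 1.33 FPKM with both fatty acids, at 91.5 FPKM with palmitate and at 1.57 FPKM untreated. KLF6, a transcription factor, stood at 5.68 FPKM with both fatty acids, at 202 FPKM with palmitate and at 5.37 FPKM untreated. Palmitate gave IFI16 log2 ratios of 3.24 in experiment 1 and 4.16 in experiment 3, and KLF6 3.55 in each.

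Palmitoleate alone was measured in experiment 1, with 1 library and no dose given in the sources used here. It put 29 genes (0.271%) at least 2-fold above the untreated library of that experiment and 723 (6.77%) below it, 7.04% in all. Its ratios followed transcript GC content closely, with Spearman's rho of -0.77 across 10282 genes, against -0.19 for both acids. The 29 higher genes had a median log2 ratio of 0.70 with both acids, and 11 of them (37.9%) were at least 2-fold higher with both, against 0.945% of all tested genes. With the GC trend removed from the ratios of both acids, the median of these 29 genes was 0.72. With the trend also removed from the ratios of palmitoleate alone and the set drawn again from them, the median was 0.15. The 11 genes were ASNS, DDIT4, INHBE, PSAT1, SLC7A11, PLIN2, IL20RB, BEX2, CCPG1, GFPT1 and SH3BGR, and make 10.9% of the 101. ASNS stood at 292 FPKM with palmitoleate and 99.3 FPKM untreated in experiment 1, a log2 ratio of 1.55. DDIT4 stood at 174 FPKM with palmitoleate and 68.3 FPKM untreated, a log2 ratio of 1.34. PLIN2 stood at 52.8 FPKM with palmitoleate and 20.5 FPKM untreated, a log2 ratio of 1.32, close to its 1.15 with both acids. CHAC1 lay at 0.68 with palmitoleate alone, and at 1.39, past 2-fold, with the GC trend removed. ATF3 lay at 0.18 with palmitoleate alone, and at 0.15 with the trend removed. The stress response list had a median of 0.42 with palmitoleate alone, 0.87 with the trend removed, and 2 of 18 genes past 2-fold before removal. The 723 lower genes had a median of -0.13 with both acids. Of these 723, 1 (0.138%) was at least 2-fold lower there, against 0.206% of all tested genes. At least 2-fold higher were 2 of the 723 (0.277%), against 0.945% of all tested genes. Across the 10686 genes the ratios of both acids and of palmitoleate alone had a Pearson correlation of 0.235 (0.196 with the GC trend removed), a description across genes of single libraries that share no sample.

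**Figure D5:**
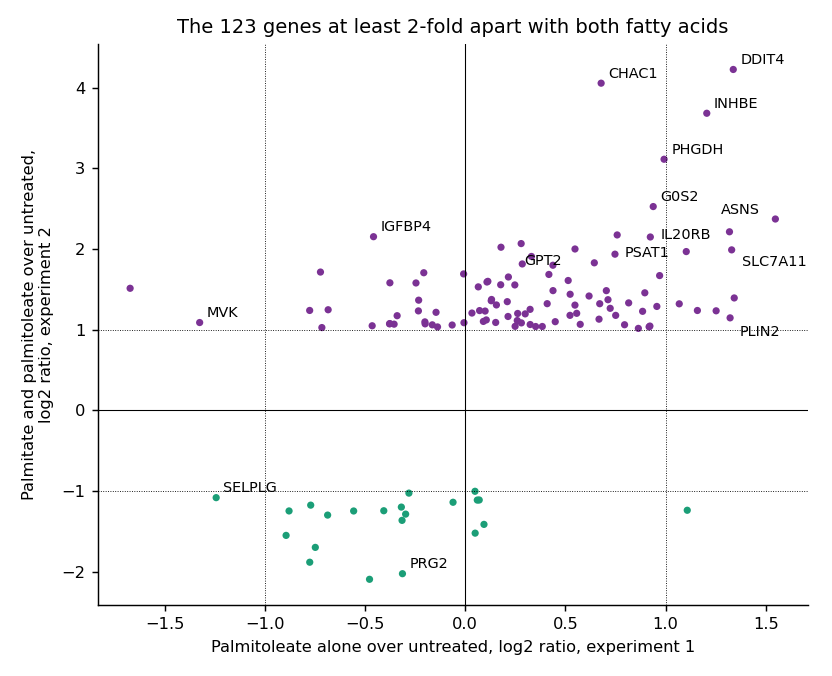
Log2 ratio of both fatty acids over untreated in experiment 2 (vertical) against that of palmitoleate alone over untreated in experiment 1 (horizontal), for the 123 genes at least 2-fold apart with both acids, 101 higher (purple) and 22 lower (green), with dotted lines at 2-fold. Only 11 of the higher genes lie right of the 2-fold line, among them ASNS, DDIT4 and INHBE, while MVK lies left of its mirror line.

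Some genes were higher with both acids and not with either acid in experiments 1 and 3. Of the 101 higher genes, 22 were not above 1.5-fold with palmitate in experiment 1 or 3 nor with palmitoleate alone. Palmitate of experiment 2 was not part of that filter. There MVK, a member of the 22, stood at 12.4 FPKM with palmitate and at 5.35 FPKM untreated. Of the 101, 8 were lower with palmitate than untreated in experiment 2. The matching shares over all tested genes were not counted, so neither count is read as particular to the mixture. IGFBP4, which binds insulin-like growth factors, stood at 36.7 FPKM with both fatty acids, at 4.33 FPKM with palmitate and at 7.48 FPKM untreated. Its log2 ratio of both acids over untreated was 2.15 (1.24 to 3.06), with a limma adjusted p of 0.162. Another 3 of the 22, HES1, RASGRP2 and SOCS3, were named after their values were seen. HES1, a Notch target, stood at 13.1 FPKM with both fatty acids, at 3.94 FPKM with palmitate and at 5.31 FPKM untreated. RASGRP2, an exchange factor for Rap1, stood at 5.76 FPKM with both fatty acids, at 0.716 FPKM with palmitate and at 1.26 FPKM untreated. SOCS3, an inhibitor of cytokine signalling, stood at 14.3 FPKM with both fatty acids, at 7.42 FPKM with palmitate and at 5.80 FPKM untreated. HES1 and RASGRP2 were lower with palmitate than untreated, as IGFBP4 was, and SOCS3 was not. No test of the difference between both acids and either acid was made here.

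The libraries fitted their label as K562 cells. HBE1 stood at 6585 FPKM with both fatty acids and 9192 FPKM untreated, and GATA1 at 147 FPKM with both fatty acids and 153 FPKM untreated. Of 8 markers each, 0 passed the filter for fibroblasts and endothelial cells, 1 for T cells, 1 for B cells, 2 for monocytes and 4 for epithelial cells. The T cell marker was CD3D, at 13.5 FPKM with both fatty acids and 13.1 FPKM untreated, and the summed FPKM of monocyte markers was 68.0 with both fatty acids and 90.2 untreated. The B cell marker CD22 lay at 0.576 FPKM with both fatty acids and 2.14 FPKM untreated. TFRC, the transferrin receptor and another gene that marks K562, had a log2 ratio of 0.42. Read counts were not given, so depth is unknown and no counting error could be set. The libraries listed 10884 genes at 1 FPKM or more with both fatty acids and 10703 untreated.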

How the data were processed

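Poly(A)-selected stranded libraries of pooled K562 RNA were sequenced in paired ends, per the labels and the series' design text. Reads were mapped to hg19 with TopHat2 and quantified with Cuffdiff, per the submitters' processing notes; versions are not given in the sources used here. Gene FPKM were deposited in 3 tables, 1 per experiment, and the authors normalized each on its own. The untreated library and the library with both acids were not paired in the authors' tests, so their values were joined through the palmitate library, which is listed with each. The tables hold 2 libraries under names that are not in the labels, not used here. Of the listed genes, 23159 were in all tables after removal of symbols turned into dates, failed fits and listings that differed by over 0.01 in relative terms.

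Ratios of log2(FPKM + 1) were taken within a table, for genes averaging 1 FPKM or more over the 2 libraries, without 132 small RNA and SNAR genes. limma 3.58.1 in R 4.3.3 took the spread from 3 wild-type palmitate ratios (2 residual and 14.9 prior degrees of freedom, with an intensity trend). The code was run on simulated data in which the lone ratio was drawn with the spread of the palmitate ratios. That run could not check whether the borrowed spread holds for the real ratio. The experiment number was used to pair the samples. Deviations of untreated and palmitate libraries of 1 experiment had correlations across genes of 0.292, 0.677 and 0.489. Between experiments they ran from -0.591 to 0.353, the highest for untreated of experiment 3 with palmitate of experiment 1. The pair of experiment 1, at 0.292, lay under that highest value. Each experiment was normalized on its own, and whether that made its libraries deviate together was not tested. Replicates are pools, and p-values set the lone ratio against the spread of palmitate ratios between experiments. The ratio of both acids was measured in 1 experiment, so its own spread between experiments is unknown. GC content came from GENCODE for 96.2% of genes, with a lowess window of 0.3, and promoters from RefSeq (GRCh38.p14), in Python 3.11.15.

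The members, the 42 gene lists and the tests were chosen with earlier results of these data known. Named were the 15 largest rises and falls at 5 FPKM or more, up to 6 members per list, a panel of stress and lipid genes and, among genes at least 4-fold with palmitate, 8 with the largest and 8 with the smallest ratios. The HSPA5 promoter and TMEM154, BCAT1, DEFB133, BEX2, CCPG1, GFPT1, SH3BGR, HES1, RASGRP2, SOCS3, BCL2L11, EIF2AK1, PPP1R15B and GATA1 were named after values were seen. Alternatives were another pseudocount (0.1), other filters, centring, small RNA genes kept, GC trend removed, other folds, no intensity trend, no block and leaving out each experiment. Some items are not reported here.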

Additional observations from a re-analysis of the deposited data

How the results depend on the processing

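The count of genes at least 2-fold apart, 123, was 232 with a pseudocount of 0.1 (182 higher and 50 lower), 81 at a mean of at least 5 FPKM, 194 with small RNA genes kept, 551 at 1.5-fold and 14 at 4-fold, and within 1.5 times of 123 in the other alternatives. The limma count of 5 was 10 at a mean of at least 5 FPKM. It was 0 with no filter (615 at an unadjusted p under 0.05), and 0 with the GC trend removed (265 unadjusted), an alternative chosen after seeing the data. With small RNA genes kept it was 8, all of them small RNA genes, 5 higher and 3 lower. Without the replicate block, the experiment pairing, limma called 0 genes with 52 at an unadjusted p under 0.05. Leaving out 1 experiment from the spread gave 10 to 13 calls, each time with the same 5 genes among them: 10 without experiment 1, 13 without experiment 2 and 11 without experiment 3. No intensity trend gave 4 calls, without ASNS. The median of genes higher with palmitoleate alone, 0.70, was 0.029 with small RNA genes kept and 0.15 with the GC trend removed from both ratios and the set drawn again, while the same 29 genes had 0.72 with the trend removed from the ratios of both acids. Of 216 list medians 207 moved by at most 0.1, and 5 changed sign, each from a size of at most 0.05. The stress response median of 1.43 was 1.11 with no filter, that of transporters, 0.48, was 0.70 at a mean of at least 5 FPKM, and that of NF-kappaB genes, 0.20, was 0.38 there. Of 1455 values of 248 named genes 11 moved by more than the error of a ratio, each under a pseudocount of 0.1, and 0 changed sign among those past 2-fold. The cause of these shifts was not tested. Read depth is unknown, the spread is borrowed from palmitate ratios, and each condition rests on 1 pooled library.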
